A study of Mus musculus with 4 samples.

Results

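The genes described here are the core of canonical Wnt signalling: Ctnnb1, which encodes beta-catenin, the TCF and LEF transcription factor genes Tcf7, Tcf7l1, Tcf7l2 and Lef1, and the destruction complex genes Axin1, Axin2, Apc, Gsk3b and Csnk1a1. They were taken by gene symbol, which matched 10 of the 23284 gene rows. Sequencing libraries came from c-Kit high leukemic cells of 2 mice lacking Msi2 (Msi2 -/-) and from 2 mice with loxP-flanked Msi2 alleles (Msi2 flox/flox, called control), all C57BL/6. The series title places the work in MLL leukemia stem cells. The MLL fusion, the Cre used for deletion and the age of the mice are not stated in the material used. Each mouse gave 1 library.

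Without a Wnt signal, Axin and Apc hold beta-catenin while casein kinase 1 alpha and then Gsk3 phosphorylate it, which marks it for degradation. With a signal this complex is inhibited, and beta-catenin enters the nucleus and turns the DNA-bound TCF and LEF factors from repressors into activators of genes such as Axin2. In blood, TCF and LEF factors are best known for T cell development, and beta-catenin has been studied as a requirement of MLL leukemia stem cells. Most control of this pathway acts on protein stability and location, which transcript counts do not show.

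Gene counts per library totalled 87564774 and 78659396 in Msi2 -/- 1 and 2, and 79845492 and 72273679 in control 1 and 2. Expression is given as CPM, read counts scaled to a common library size after TMM correction, and 3 counts corresponded to between 0.0343 and 0.0412 CPM. Msi2 itself, the check of the genotype labels, had 8 and 17 counts in Msi2 -/- mice against 2804 and 3562 counts in control mice. Although its log2 fold change (Msi2 -/- minus control) was -8.07, Msi2 was not called at a threshold of 0.05 by edgeR (quasi-likelihood test, adjusted p = 0.122) or by limma-voom (adjusted p = 0.273), while DESeq2 called it lower (adjusted p = 6.35e-80). A gene that missed the edgeR threshold in these data is therefore not shown to be equal between the groups. The groups also differed in Xist, the RNA of the inactive X chromosome, at 0.469 and 0.624 CPM in Msi2 -/- mice against 1454.5 and 654 CPM in control mice. The library names begin with a number that differs between the groups and whose meaning is not stated. Genotype, Xist status and that number cannot be told apart. With 2 mice a group, p-values rest on few residual degrees of freedom.

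The transcripts of the pathway core fell into 3 kinds in these cells. Ctnnb1 and the destruction complex genes other than Axin2 were well expressed and differed little between genotypes. Tcf7 and Tcf7l1 were scarce and stood lower in Msi2 -/- cells, Tcf7l2 was scarce and varied between mice of the same genotype, and Lef1 and Axin2 had 0 counts in every library. By edgeR's quasi-likelihood test with Benjamini-Hochberg adjustment over 13215 genes, 0 members passed an adjusted p of 0.05 in either direction, where 0.00757% of all tested genes did (1 gene) and Msi2 itself did not. At an unadjusted p under 0.05, 3 members were lower (Tcf7, Tcf7l1 and Ctnnb1) and 0 higher, against 6.17% lower and 6.69% higher among all tested genes. DESeq2 called 1 member lower, Tcf7, and 0 higher, where it called 2.71% of its tested genes lower and 3.1% higher. Of the 10 members 8 had enough counts to be tested.

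**Figure D1:**
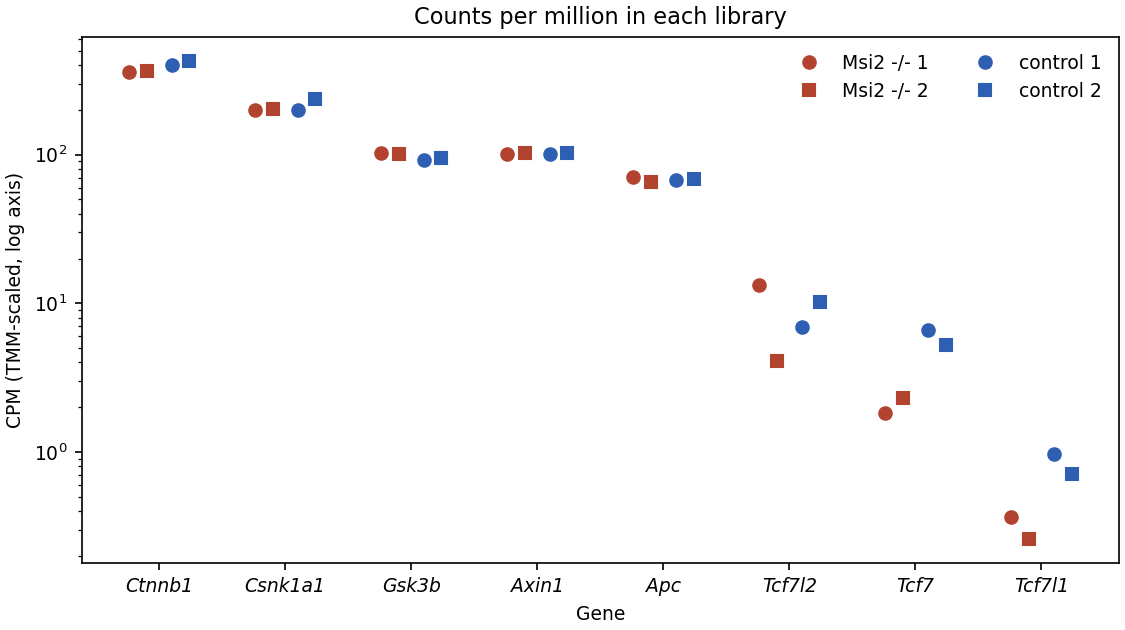
CPM (TMM-scaled, logarithmic axis) of the 8 members with counts, 1 point per library, Msi2 -/- mice in red and control mice in blue, circles for replicate 1 and squares for replicate 2. Tcf7 and Tcf7l1 of both Msi2 -/- mice lie under both controls, while Tcf7l2 of the Msi2 -/- mice, at 13.2 and 4.11 CPM, lies on both sides of the controls. Axin2 and Lef1, with 0 counts in all libraries, cannot be drawn on this axis.

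Axin1 encodes the scaffold on which the destruction complex assembles. It stood at 101 and 103 CPM in Msi2 -/- mice, against 101 and 103 CPM in control mice. The 4 libraries lay within 1.02-fold of each other, and the log2 fold change (Msi2 -/- minus control) was 0.0015 (SE 0.062, 95% interval -0.17 to 0.17, edgeR adjusted p = 0.994). Its sign changed with the scaling of the libraries.

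Apc, a tumor suppressor gene whose protein binds beta-catenin within the complex, had 70.2 and 65.9 CPM in Msi2 -/- mice and 67.7 and 69.0 CPM in control mice. The control values lay between those of the Msi2 -/- mice, with a log2 fold change of -0.0067 (SE 0.072, 95% interval -0.20 to 0.19, edgeR adjusted p = 0.978). Gsk3b, the kinase that phosphorylates beta-catenin for degradation, had 103 and 100.4 CPM in Msi2 -/- mice, against 91.7 and 94.9 CPM in control mice. It was the 1 member whose Msi2 -/- values both lay above both controls, where 23.7% of all tested genes showed this and 48.3% showed no overlap in either direction. The log2 fold change of 0.12 did not pass the test (SE 0.064, 95% interval -0.047 to 0.30, edgeR adjusted p = 0.470). Gsk3a, which encodes the other Gsk3 kinase, had 100.8 and 100.5 CPM in Msi2 -/- mice and 102 and 94.2 CPM in control mice, so its groups overlapped.

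Csnk1a1, for casein kinase 1 alpha, the priming kinase of beta-catenin, had 200.3 and 204 CPM in Msi2 -/- mice, against 200.1 and 238 CPM in control mice. The Msi2 -/- values lay between the controls (log2 fold change -0.11, SE 0.10, 95% interval -0.40 to 0.17, edgeR adjusted p = 0.675), and the sign rested on control 2, since without it the log2 fold change was 0.018.

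Axin2 encodes the second Axin scaffold and is a widely used transcriptional readout of beta-catenin and TCF. It had 0 counts in all 4 libraries. In the shallowest of them this gives a 95% upper limit of about 0.0412 CPM, or 3 counts, for counting error only. Of all 23284 gene rows, 6809 had 0 counts in every library. In the GENCODE vM21 annotation of GRCm38, 4.86% of the exon bases of Axin2 are shared with another gene, on the opposite strand. No fold change can be given for Axin2.

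Ctnnb1 was the most abundant member and stood slightly lower in Msi2 -/- cells. It had 360 and 365 CPM in Msi2 -/- mice, against 401 and 429 CPM in control mice. Both Msi2 -/- libraries lay below both controls, as they did for 24.6% of all tested genes. The mice of a group differed by 1.02-fold (Msi2 -/-) and 1.07-fold (control), and Msi2 -/- cells held 0.873 times the control level. The log2 fold change was -0.20 (SE 0.070, 95% interval -0.38 to -0.0064), with an unadjusted p of 0.045 and an adjusted p of 0.382 by edgeR and an adjusted p of 0.179 by DESeq2. It ranged from -0.24 to -0.14 when each library was left out in turn.

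**Figure D2:**
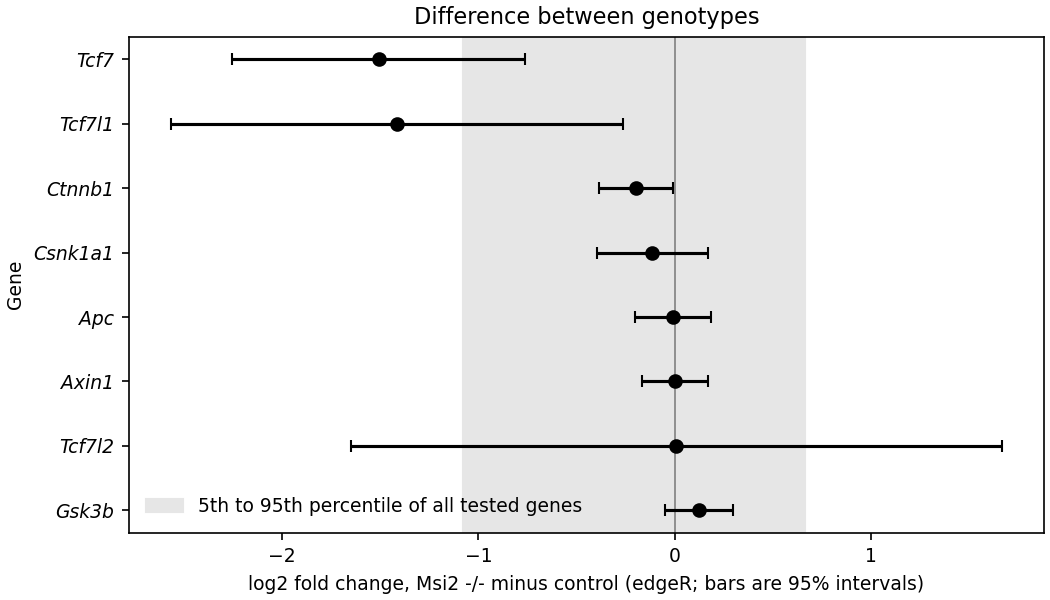
Log2 fold change, Msi2 -/- minus control, of the 8 tested members with 95% intervals from edgeR's quasi-likelihood test; the grey band spans the 5th to 95th percentile of all tested genes, -1.08 to 0.67. Tcf7 at -1.51 and Tcf7l1 at -1.41 lie below the band, Axin1, Apc, Gsk3b, Csnk1a1 and Ctnnb1 have narrow intervals near 0, and the interval of Tcf7l2 runs from -1.65 to 1.67.

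Tcf7, which encodes TCF1, a factor of T cell and early lymphoid development also expressed in blood stem cells, showed the largest difference among the tested members. It had 161 and 178 counts in Msi2 -/- mice, against 533 and 382 counts in control mice. On the CPM scale it averaged 2.08 ± 0.334 in Msi2 -/- mice and 5.91 ± 0.943 in control mice (SD, n = 2 each). The groups did not overlap, and the mice of a group differed by 1.26-fold (Msi2 -/-) and 1.25-fold (control). Msi2 -/- cells held 0.352 times the control level, a log2 fold change of -1.51 (SE 0.28, 95% interval -2.25 to -0.76). The unadjusted p was 0.0044 and the adjusted p 0.293 by edgeR's quasi-likelihood test, while DESeq2 gave an adjusted p of 0.000324.

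The call by DESeq2 was lost without control 1 (log2 fold change -1.33, DESeq2 adjusted p = 0.397) and without control 2 (-1.66, DESeq2 adjusted p = 0.219). It held without Msi2 -/- 1 (DESeq2 adjusted p = 0.0471) and without Msi2 -/- 2 (DESeq2 adjusted p = 0.00416). Across alternative scalings, filters and tools the log2 fold change of Tcf7 ran from -1.53 to -1.50. The gene has a long form that binds beta-catenin and a short form that lacks the binding part. Counts per gene do not separate them. In bulk RNA, fewer cells that express a gene and less RNA per cell cannot be told apart.

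Since T cells are rich in Tcf7 and Lef1, 16 T cell markers were read in the same libraries. Of these, 6 had 0 counts in all libraries, among them Cd3e, Cd3g and Cd8a. Cd3d had 16 and 2 counts in Msi2 -/- mice and 3 and 4 counts in control mice. Cd247 had 7 and 6 counts in Msi2 -/- mice and 11 and 5 counts in control mice. The summed level of the 16 markers was 30.6 and 312 CPM in Msi2 -/- mice, against 87.7 and 206 CPM in control mice, so the groups overlapped. Most of this sum was Thy1, a surface gene of T cells and of some blood progenitors, at 19.6 and 279 CPM in Msi2 -/- mice and 54.4 and 185 CPM in control mice. Cd28 had 1.02 and 22.6 CPM in Msi2 -/- mice and 21.1 and 9.40 CPM in control mice. Lck had 6.50 and 9.45 CPM in Msi2 -/- mice and 8.95 and 9.95 CPM in control mice. Transcripts of T cell markers were therefore not all absent. The part of these markers in the difference of Tcf7 was not tested.

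Tcf7l1, which encodes TCF3, the family member known mainly as a repressor in embryonic stem cells, was the least abundant of the tested members. It had 32 and 20 counts in Msi2 -/- mice, against 78 and 52 counts in control mice, or 0.366 and 0.260 CPM against 0.962 and 0.713 CPM. The groups did not overlap, at a log2 fold change of -1.41 (SE 0.43, 95% interval -2.57 to -0.26), an edgeR adjusted p of 0.350 and a DESeq2 adjusted p of 0.285. In GENCODE vM21, 2.72% of its exon bases are shared with a gene on the opposite strand.

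Tcf7l2 encodes TCF4, the main TCF of intestinal stem cells. It had 13.2 and 4.11 CPM in Msi2 -/- mice, against 6.97 and 10.3 CPM in control mice. The Msi2 -/- mice differed by 3.22-fold, 1 above and 1 below both controls, which differed by 1.47-fold. The log2 fold change of 0.0092 had an SE of 0.61 and an interval from -1.65 to 1.67 (edgeR adjusted p = 0.996), so the data bound a difference in Tcf7l2 only loosely. It was -1.06 without Msi2 -/- 1 and 0.62 without Msi2 -/- 2. The order of the 4 libraries for Tcf7l2 was also that for Cd34, a progenitor surface gene, which had 79.8 and 7.02 CPM in Msi2 -/- mice and 20.3 and 43.4 CPM in control mice. With 4 libraries few orders are possible, so many genes can share one, and the match by itself carries little weight. Cd34 was picked for this after its values were seen, and its part in the spread of Tcf7l2 was not tested.

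Lef1, the family member raised by Wnt signals in many tissues and active in lymphoid cells, had 0 counts in all 4 libraries, with the same limit of 0.0412 CPM as Axin2. In GENCODE vM21, 34.5% of its exon bases are shared with a gene on the opposite strand, so reads there could have been left out as ambiguous, while the remaining exon bases belong to Lef1 alone.

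**Figure D3:**
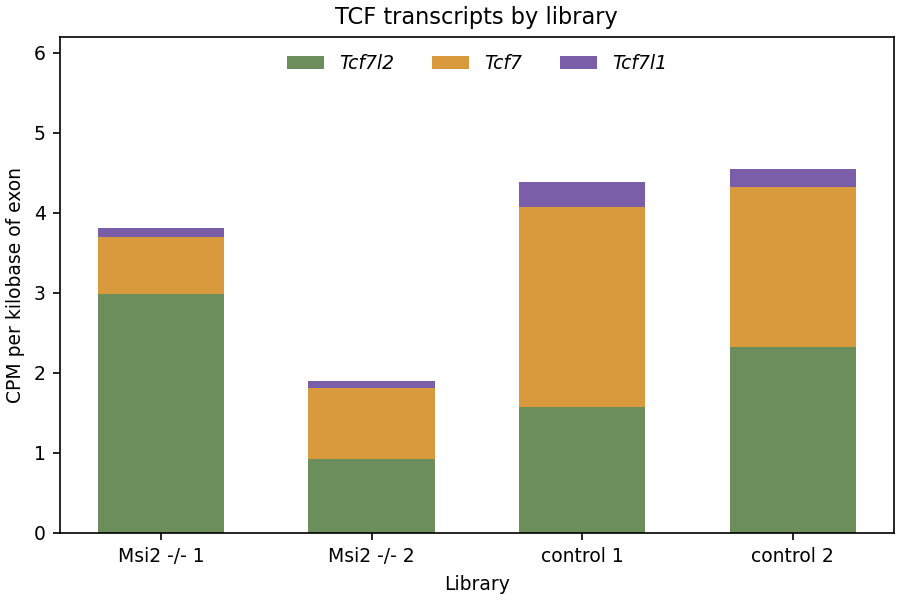
CPM per kilobase of exon of Tcf7l2, Tcf7 and Tcf7l1, stacked for each library (Lef1 had 0 counts). The sum was 3.81 and 1.89 in Msi2 -/- mice and 4.39 and 4.55 in control mice, and the Tcf7 part is smaller in both Msi2 -/- mice than in either control.

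Levels of different genes can be compared only per length, so CPM were divided by the exon length of protein-coding transcripts in GENCODE vM21, which may differ from the gene models the authors counted. On this scale of CPM per kilobase, Ctnnb1 led with values from 99.2 to 118 over the 4 libraries. Csnk1a1 (31.2 to 37.1), Axin1 (26.6 to 27.3), Gsk3b (11.0 to 12.4) and Apc (5.01 to 5.34) followed, each without overlap with the next. Tcf7l2 (0.928 to 2.99) and Tcf7 (0.702 to 2.5) overlapped each other, and Tcf7l1 (0.0843 to 0.312) lay below both. The sum of the TCF and LEF genes was 3.81 and 1.89 CPM per kilobase in Msi2 -/- mice, against 4.39 and 4.55 CPM per kilobase in control mice. Tcf7 made up 18.4% and 46.6% of that sum in Msi2 -/- mice and 57.0% and 43.9% in control mice, and Tcf7l2 78.5% and 49.0% in Msi2 -/- mice and 35.8% and 51.0% in control mice. The shares therefore overlapped between genotypes, although the level of Tcf7 itself did not.

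**Figure D4:**
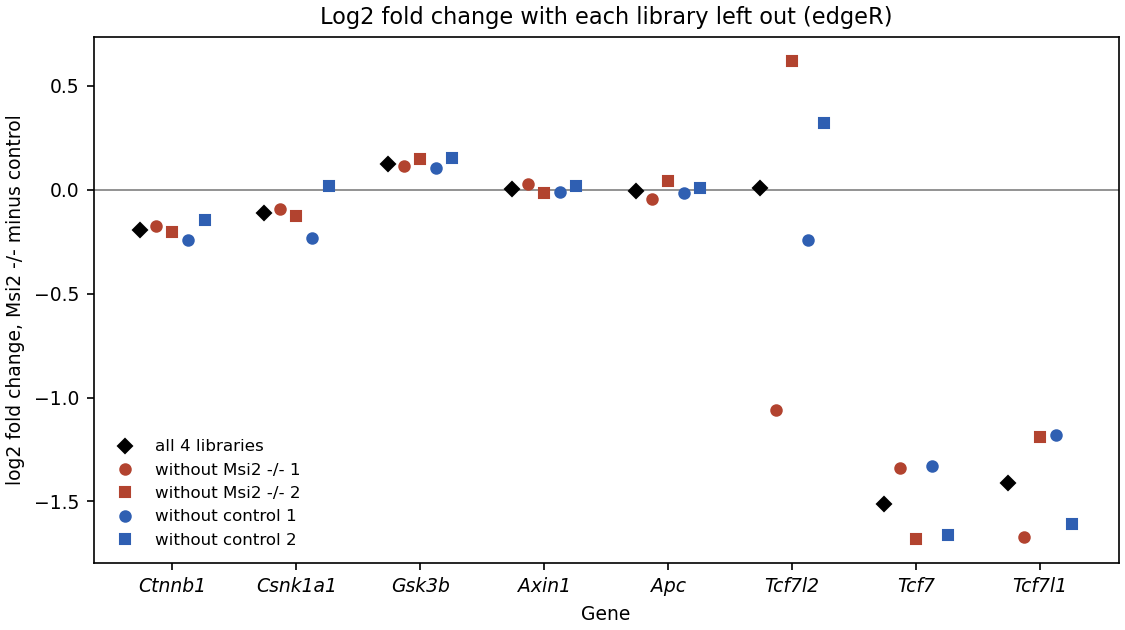
Log2 fold change, Msi2 -/- minus control, of the 8 tested members by edgeR with all 4 libraries (black diamonds) and without each library in turn (red for a left-out Msi2 -/- mouse, blue for a left-out control). Tcf7 stays between -1.68 and -1.33 and Tcf7l1 between -1.67 and -1.18, whereas Tcf7l2 runs from -1.06 to 0.62.

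The start regions of the genes with the largest differences are shown because TCF genes are themselves known targets of TCF factors. RefSeq windows on GRCm38.p6, each from 250 bases before to 50 bases after an annotated start, were searched for the TCF core CTTTGA on both strands (TCAAAG on the reverse). The motif was in 16.0% of all 32851 windows and in 2 of the 13 windows of 7 members, 1 of Lef1 and 1 of Gsk3b. These 13 windows include none of Axin1, Apc or Csnk1a1, so the count does not cover all members. The windows of both Tcf7 starts and of Tcf7l1 hold no match to CTTTGA or TCAAAG and are therefore all in lower case. In the upstream Tcf7 window a reading frame opens at atgccgcagctg, before the annotated start, and runs to the end of the window. Much of that window is therefore coding sequence, and only a short stretch ahead of this coding start was searched. Bases outside the windows and other forms of the motif were not searched. The Lef1 window, shown for comparison, holds 2 matches in capitals, beginning 180 and 120 bases before the start. All are written 5′ to 3′ on the strand of the gene.
Tcf7, upstream start, chr11:52282965-52283264, minus strand: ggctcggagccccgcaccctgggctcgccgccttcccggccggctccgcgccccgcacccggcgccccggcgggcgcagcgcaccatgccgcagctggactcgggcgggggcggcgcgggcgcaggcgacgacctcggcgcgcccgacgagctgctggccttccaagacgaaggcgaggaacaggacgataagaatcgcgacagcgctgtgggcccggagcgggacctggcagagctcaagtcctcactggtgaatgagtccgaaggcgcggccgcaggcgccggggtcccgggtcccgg
Tcf7, downstream start, chr11:52282546-52282845, minus strand: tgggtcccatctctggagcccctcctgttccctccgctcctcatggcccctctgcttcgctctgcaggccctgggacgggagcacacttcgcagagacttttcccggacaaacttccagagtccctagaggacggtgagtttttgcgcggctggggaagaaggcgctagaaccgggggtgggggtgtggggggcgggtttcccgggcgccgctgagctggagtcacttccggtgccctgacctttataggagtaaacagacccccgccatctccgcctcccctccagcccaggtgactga
Tcf7l1, chr6:72788996-72789295, minus strand: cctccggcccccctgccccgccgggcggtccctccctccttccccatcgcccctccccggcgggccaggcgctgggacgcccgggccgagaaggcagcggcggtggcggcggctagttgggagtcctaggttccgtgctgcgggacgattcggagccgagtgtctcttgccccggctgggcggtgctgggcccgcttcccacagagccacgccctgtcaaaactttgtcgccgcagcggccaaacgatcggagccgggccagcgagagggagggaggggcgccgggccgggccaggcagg
Lef1, internal start, chr3:131156044-131156343, plus strand: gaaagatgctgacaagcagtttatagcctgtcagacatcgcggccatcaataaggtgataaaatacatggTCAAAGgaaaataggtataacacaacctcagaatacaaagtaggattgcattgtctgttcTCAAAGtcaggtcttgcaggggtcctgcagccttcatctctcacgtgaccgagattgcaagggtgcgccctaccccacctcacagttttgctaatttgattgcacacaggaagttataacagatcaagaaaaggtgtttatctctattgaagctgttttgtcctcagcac
A match is a description of the letters and no evidence of binding.

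Other genes of the pathway were read from lists of ligands, receptors, inhibitors, cytoplasmic and nuclear partners and targets. Over all tested genes the median log2 fold change was -0.0021. By edgeR 0 genes of any of these lists passed an adjusted p of 0.05, and the calls given for them are those of DESeq2, which called 5.81% of all its tested genes in either direction. At an unadjusted p under 0.05 by edgeR, 6.17% of all tested genes were lower and 6.69% higher. Under that rule 1 of 4 ligands, 5 of 12 receptors, 2 of 6 inhibitors, 2 of 29 cytoplasmic regulators, 1 of 26 nuclear cofactors, 0 of 5 catenin and cadherin partners and 5 of 17 targets were lower. In the same test 2 of 29 cytoplasmic regulators, 2 of 26 nuclear cofactors, 1 of 5 partners and 1 of 17 targets were higher, as were 0 ligands, receptors and inhibitors. The lists share genes: Znrf3 is counted as lower among both inhibitors and targets, and Tcf7 among the targets is also a member.

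Few Wnt ligands were transcribed. Of 19 ligand genes, 10 had 0 counts in all libraries, among them Wnt1, Wnt3, Wnt3a and Wnt5a, and 4 had enough counts to be tested. These 4 had a median log2 fold change of -1.09, with 1 gene above 0 and 3 below. Wnt10b, a ligand known in blood and bone marrow, had 20 and 47 counts in Msi2 -/- mice, against 123 and 146 counts in control mice (log2 fold change -2.07 with SE 0.59, adjusted p = 0.339 by edgeR and 0.0770 by DESeq2). Its log2 fold change was -1.51 without Msi2 -/- 1 and -2.93 without Msi2 -/- 2. Wnt6 had 21 and 17 counts in Msi2 -/- mice and 35 and 36 counts in control mice (edgeR adjusted p = 0.414). DESeq2 called 0 ligands. Wls, which carries Wnt proteins to the cell surface, overlapped between the groups at 105 and 122 CPM in Msi2 -/- mice and 106 and 107 CPM in control mice. Porcn, the enzyme that attaches the lipid Wnt proteins need, had 39 and 38 counts in Msi2 -/- mice and 25 and 14 counts in control mice (edgeR adjusted p = 0.470).

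Wnt receptor genes lay mostly lower in Msi2 -/- cells. Of 12 tested receptor and co-receptor genes 10 lay below 0 and 2 above on the log2 scale, and the median was -0.52. Both Msi2 -/- libraries lay below both controls for 8 of the 12, or 66.7%, against 24.6% of all tested genes. That comparison was not matched for abundance, and several of the lower receptor genes had few counts. Of the receptor genes 0 passed adjustment by edgeR or by DESeq2. Fzd4, a Frizzled receptor gene, had 54 and 61 counts in Msi2 -/- mice, against 145 and 101 counts in control mice (log2 fold change -1.17 with SE 0.36, adjusted p = 0.352 by edgeR). Fzd3 had 4.58 and 2.18 CPM in Msi2 -/- mice and 7.19 and 9.30 CPM in control mice (log2 fold change -1.29 with SE 0.43, adjusted p = 0.367 by edgeR). The log2 fold change of Fzd3 was -1.91 without Msi2 -/- 1 and -0.85 without Msi2 -/- 2. The co-receptor genes Lrp5 and Lrp6 were far more abundant and closer to 0. Lrp5 had 99.9 and 120 CPM in Msi2 -/- mice and 124 and 121 CPM in control mice, and Lrp6 had 70.8 and 78.4 CPM in Msi2 -/- mice and 77.7 and 76.9 CPM in control mice.

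Among secreted and surface inhibitors DESeq2 called 1 gene lower, Frzb, and 0 higher. Frzb encodes a secreted Frizzled-related protein that binds Wnt ligands. It had 15 and 32 counts in Msi2 -/- mice, against 248 and 486 counts in control mice (log2 fold change -4.05 with SE 0.69, adjusted p = 0.282 by edgeR and 1.03e-06 by DESeq2). The DESeq2 call was lost without control 2 (adjusted p = 0.148) and held without any other library. Of the 17 genes of this list 6 were tested, with a median of -0.40, and 6 had 0 counts throughout, including Dkk1 and Sfrp1.

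The cytoplasmic regulators as a list were centred near 0, with a median of 0.030 over 29 tested genes, 16 above 0 and 13 below. DESeq2 called 2 higher and 2 lower. Frat1 and Frat2, paralogs whose proteins bind Gsk3 and keep it from Axin, were the 2 lower calls. Frat2 had 47.2 and 42.5 CPM in Msi2 -/- mice, against 79.4 and 91.6 CPM in control mice (log2 fold change -0.93 with SE 0.11, adjusted p = 0.265 by edgeR and 9.83e-09 by DESeq2). Frat1 had 20.5 and 18.9 CPM in Msi2 -/- mice, against 34.6 and 37.9 CPM in control mice (log2 fold change -0.88 with SE 0.11, adjusted p = 0.271 by edgeR and 4.37e-08 by DESeq2). For both genes the mice of a group were close and the groups far apart, and the log2 fold change stayed between -1.03 and -0.81 whichever library was left out. The DESeq2 call of Frat2 held without each library in turn, with a largest adjusted p of 0.00427, and that of Frat1 was lost without control 2 (DESeq2 adjusted p = 0.0634). The 2 higher calls were Dixdc1, an Axin-like DIX domain gene, at 21.4 and 15.9 CPM in Msi2 -/- mice and 10.5 and 11.0 CPM in control mice (log2 fold change 0.79, DESeq2 adjusted p = 0.0149), and Csnk2b, the regulatory subunit of casein kinase 2, at 209 and 197 CPM in Msi2 -/- mice and 173 and 163 CPM in control mice (log2 fold change 0.27, DESeq2 adjusted p = 0.0374). Csnk2b was not called once any library was left out (DESeq2 adjusted p from 0.201 to 0.984), and Dixdc1 was called only without Msi2 -/- 2 (DESeq2 adjusted p = 0.00284, against 0.308 to 0.527 without the others).

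**Figure D5:**
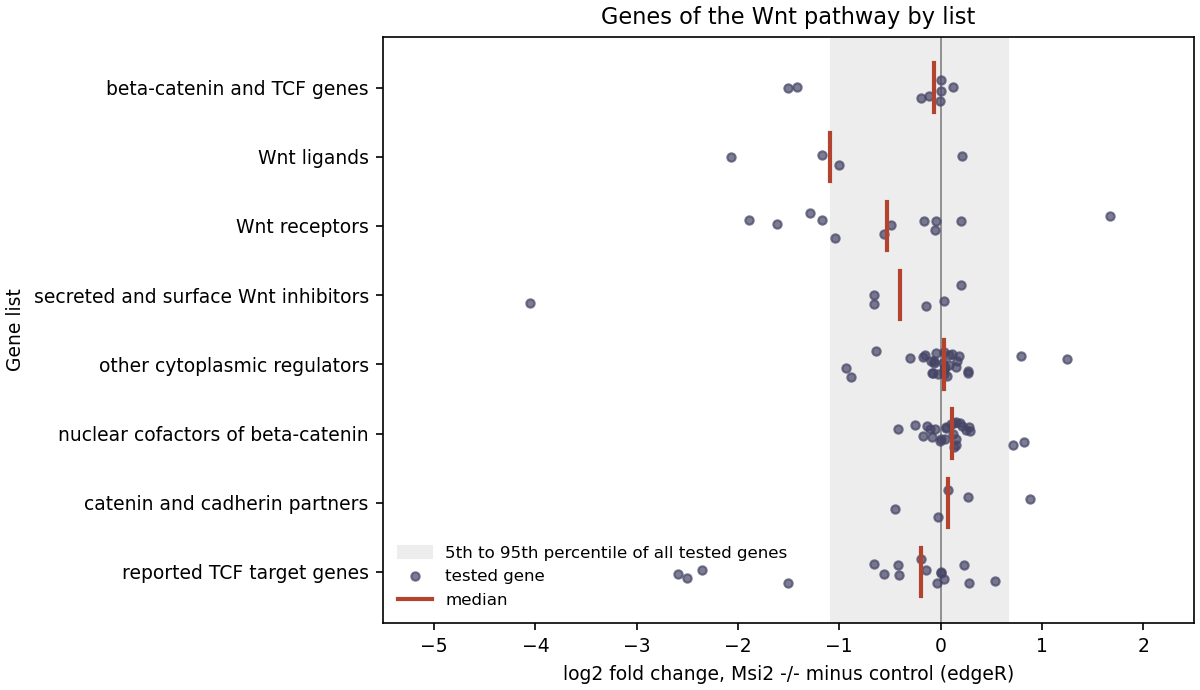
Log2 fold change, Msi2 -/- minus control (edgeR), of each tested gene of the pathway by list, with the list median in red and the 5th to 95th percentile of all tested genes in grey. The medians of ligands (-1.09) and receptors (-0.52) lie below 0, while those of cytoplasmic regulators (0.030) and nuclear cofactors (0.11) lie near it. Tcf7 stands in both the first and the last list, and Rnf43, Znrf3 and Notum stand in both the inhibitor and the target list.

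Nuclear cofactors of beta-catenin and TCF were near or slightly above the controls. Of 26 tested genes 18 lay above 0 and 8 below on the log2 scale, the median being 0.11, and DESeq2 called 2 higher and 0 lower. Both calls belong to the Groucho family, whose long members repress through TCF. Tle6, a divergent family member, had 26.5 and 19.8 CPM in Msi2 -/- mice, against 15.2 and 11.0 CPM in control mice (log2 fold change 0.82, SE 0.24, DESeq2 adjusted p = 0.0439). Aes, the short member also called Tle5, had 489 and 517 CPM in Msi2 -/- mice, against 428 and 420 CPM in control mice (log2 fold change 0.25, SE 0.068, DESeq2 adjusted p = 0.0268). Aes was not called once any library was left out (DESeq2 adjusted p from 0.242 to 0.843), and Tle6 was called only without Msi2 -/- 2 (DESeq2 adjusted p = 0.0106, against 0.0607 to 0.889 without the others).

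Among catenin and cadherin partners, 5 of 10 genes were tested and DESeq2 called 0 (median 0.073). Ctnna1, for alpha-catenin, which links beta-catenin to actin, had 147 and 163 CPM in Msi2 -/- mice, against 132 and 125 CPM in control mice (log2 fold change 0.27 with SE 0.083, adjusted p = 0.350 by edgeR). Jup encodes plakoglobin, the closest relative of beta-catenin. It had 72.0 and 33.0 CPM in Msi2 -/- mice, against 27.2 and 29.8 CPM in control mice, and its difference rested on Msi2 -/- 1. The log2 fold change of Jup was 0.88 with all libraries (edgeR adjusted p = 0.431), 0.22 without Msi2 -/- 1 (edgeR adjusted p = 0.528) and 1.34 without Msi2 -/- 2 (edgeR adjusted p = 0.0399).

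Of 30 genes reported as TCF targets in other tissues, 9 had 0 counts in all libraries, including Axin2, Lef1, Sp5, Lgr5 and Dkk1, and 17 were tested. The median log2 fold change was -0.19, with 6 genes above 0 and 11 below, and both Msi2 -/- libraries lay below both controls for 5 of them, or 29.4%, against 24.6% of all tested genes. DESeq2 called 0 higher and 2 lower, which were Tcf7 itself and Myc. Myc, a growth-promoting transcription factor with many regulators besides TCF, had 285 and 322 CPM in Msi2 -/- mice, against 407 and 489 CPM in control mice (log2 fold change -0.56 with SE 0.12, adjusted p = 0.308 by edgeR and 0.00399 by DESeq2). The call of Myc was lost without Msi2 -/- 1 (DESeq2 adjusted p = 0.0850) and without control 2 (DESeq2 adjusted p = 0.267). Ccnd1, the cyclin D1 gene, overlapped between the groups at 2.10 and 5.82 CPM in Msi2 -/- mice and 3.49 and 3.03 CPM in control mice, as did Rnf43, a surface inhibitor of Wnt receptors, at 25.2 and 22.3 CPM in Msi2 -/- mice and 22.7 and 23.7 CPM in control mice. Ccnd1 and Rnf43 were named after their values were seen.

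The labelled cell type was checked against its markers. Of the progenitor markers, Kit had 68.1 and 57.1 CPM in Msi2 -/- mice and 50.4 and 51.9 CPM in control mice, and the granule gene Elane of myeloid progenitors had 4223 and 6632 CPM in Msi2 -/- mice and 4643 and 4208 CPM in control mice. Mpo, the other granule gene read, split by group, with 2116 and 2159 CPM in Msi2 -/- mice against 4001 and 4952 CPM in control mice (0.478 times the control level, adjusted p = 0.265 by edgeR and 8.40e-12 by DESeq2). Of the 12 markers of c-Kit high progenitors DESeq2 called Myb and Mpo lower and Sfpi1, the gene of the myeloid factor PU.1, higher, Sfpi1 being at 317 and 309 CPM in Msi2 -/- mice and 244 and 214 CPM in control mice. The summed level of 10 B cell markers was 21.9 and 19.6 CPM in Msi2 -/- mice and 28.3 and 27.8 CPM in control mice, nearly all of it Cd79b, with Pax5 and Ms4a1 at 0, and DESeq2 called Cd79b lower. Summed NK cell markers stayed between 1.34 and 1.86 CPM and erythroid markers between 1.001 and 1.75 CPM in the 4 libraries. Stromal and endothelial markers summed to 38.0 and 170 CPM in Msi2 -/- mice and 70.5 and 85.5 CPM in control mice, mainly Pecam1, which blood cells also express. The part of these markers in the differences of Tcf7 and the receptor genes was not tested.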

How the data were processed

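The authors deposited 1 table of whole-number read counts per library, by gene symbol and not normalized; 5 closing rows that name no gene took between 19.1% and 20.1% of the counts and were left out. The submitters' processing notes list Trimmomatic, STAR, HTSeq and DESeq with the mouse build mm9, all without a version. How overlapping genes and strand were handled in counting, and with which gene models, is not stated there.

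The main test was that of edgeR 4.0.16 (R 4.3.3): filterByExpr (minimum count 10, minimum total count 15), TMM scaling and a two-sided quasi-likelihood test of genotype over all 13215 genes kept, with Benjamini-Hochberg adjusted p under 0.05. SE and 95% intervals were taken from the F statistic. DESeq2 1.42.0 and limma 3.58.1 (voom) were alternatives. Replicates differed far beyond sampling noise (chi-square per gene 151 between Msi2 -/- mice and 62.1 between controls). The fits were tested on simulated counts of 13215 genes, 200 of them changed. edgeR recovered 49.3%, 77.6% and 77.3% of genes changed 2-fold, 4-fold and 8-fold, with 14 false calls. DESeq2 recovered 56.7%, 80.6% and 77.3% of the same genes, with 98 false calls. In these simulated counts, calls by DESeq2 were therefore less certain than their adjusted p stated. The simulation did not match the data in full, since edgeR's quasi-likelihood test called 1 gene in the real libraries and missed Msi2. The rates may therefore not carry over, and how certain a DESeq2 call is in the real libraries was not measured.

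The members and lists were chosen with earlier results of these data known. Named genes were Msi2, all members, and in each pathway list up to 4 genes past an adjusted p of 0.05 by edgeR or DESeq2, or else the 2 of smallest p, and the most abundant markers; further genes, such as Lrp5, Lrp6, Gsk3a, Cd34, Kit and Xist, were added after their values were seen. The windows around annotated starts are from RefSeq.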

Additional observations from a re-analysis of the deposited data

How the results depend on the processing

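Members called higher numbered 0 under every alternative run. Members called lower numbered 1 (Tcf7) with DESeq2 and 0 under the other scalings, filters and tools, and ran from 0 to 1 with a library left out. Over all genes, calls were 0 higher and 1 lower by edgeR's quasi-likelihood test, 414 higher and 362 lower by DESeq2, and 120 higher and 192 lower by edgeR's likelihood ratio test, where Tcf7 had an adjusted p of 0.0501. Lower calls numbered 6 with no filter on low counts, 2 at an adjusted p under 0.1, 0 with limma-voom and 0 with the replicate number as a block. With a library left out, edgeR called from 0 to 23 genes higher and from 0 to 83 lower, while DESeq2, in an alternative chosen after seeing the data, called 291 higher and 336 lower without Msi2 -/- 1, 299 and 600 without Msi2 -/- 2, 220 and 170 without control 1, and 102 and 95 without control 2. A group of 1 mouse is then assumed to vary like the other.

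Signs changed where the log2 fold change was near 0 or the mice of a group disagreed. Axin1 was -0.021 with upper-quartile scaling and -0.0013 with a filter at 1 CPM in 2 libraries. Tcf7l2 was -0.011 with upper-quartile scaling, -0.14 with limma-voom and -0.19 with the replicate block. With a library left out, Apc ran from -0.045 to 0.040, Axin1 from -0.015 to 0.028, Csnk1a1 from -0.23 to 0.018, Tcf7l2 from -1.06 to 0.62 and Wls from -0.017 to 0.21. The cause was not tested. The replicate numbers are not known to pair the mice: the deviations of the first mice of both groups correlated at 0.039 over genes, and under the block Tcf7 was at -1.51 (edgeR adjusted p = 0.402).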

Other observations

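In the list of reported TCF targets, the lowest log2 fold changes belonged to genes with few counts, picked here after their values were seen. Ascl2, a transcription factor gene of intestinal stem cells, had 10 and 20 counts in Msi2 -/- mice, against 123 and 54 counts in control mice (log2 fold change -2.59 with SE 0.66, adjusted p = 0.333 by edgeR and 0.0564 by DESeq2). Nrcam, a cell adhesion gene, had 7 and 4 counts in Msi2 -/- mice, against 29 and 30 counts in control mice (log2 fold change -2.51 with SE 0.53, adjusted p = 0.298 by edgeR). Both genes were below both controls in both Msi2 -/- mice. Fzd1, a Frizzled receptor gene, had 30 and 212 counts in Msi2 -/- mice and 33 and 41 counts in control mice, so that 1 Msi2 -/- mouse stood apart. Flt3, a cytokine receptor gene of early progenitors, had 55 and 10 counts in Msi2 -/- mice, against 114 and 320 counts in control mice (log2 fold change -2.92 with SE 1.002, adjusted p = 0.373 by edgeR and 0.0562 by DESeq2).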
